A study of Homo sapiens with 18 samples.

Results

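The noncoding rows MT-RNR2, MT-RNR1, RN7SK and CTD-2328D6.1 together held 23.7% to 28.2% of the reads of each RNA-seq library, from parental HEK293T cells and cells labelled UBR7KO. These 4 of the 14177 rows of the table were chosen by name for their level, so the height of their share of reads is given as a description without a test. Differences of the rows between parental and UBR7KO libraries were tested. HEK293T cells are a widely used line derived from human embryonic kidney, and UBR7 is a UBR box protein. Total RNA was sequenced from parental cells (3 libraries) and from cells labelled UBR7KO, edited with CRISPR-Cas9 (3 libraries), all kept in serum-containing DMEM. By their labels, KO1-1 and KO1-2 belong to line KO1, and KO2-1 is the one RNA library of line KO2. Whether each line is 1 clone, and whether replicates are separate cultures, is not stated, so p-values measure the spread between these libraries, which may be technical. Date codes in the labels tie parental 1 to KO1-1 (the first dated pair) and parental 2 to KO1-2 (the second dated pair). For parental 3 and KO2-1 the labels hold no date code, and these libraries are called the undated pair.

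MT-RNR1 and MT-RNR2 encode the 12S and 16S RNAs of the small and large subunit of the mitochondrial ribosome. They lie next to each other on mitochondrial DNA and are copied as the first genes of long heavy-strand transcripts, of which a large part ends behind MT-RNR2, so that rRNA is far more abundant than the mitochondrial mRNAs downstream. RN7SK is the 7SK RNA, a small nuclear RNA made by RNA polymerase III that holds the elongation kinase P-TEFb inactive together with HEXIM proteins, LARP7 and MEPCE. CTD-2328D6.1 is classed as a pseudogene in the table, which gives it no description.

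In GRCh37-type coordinates counted from 1, MT-RNR1 (ENSG00000211459) lies at chrM:648-1601 on the plus strand and MT-RNR2 (ENSG00000210082) at chrM:1671-3229 on the plus strand. RN7SK (ENSG00000202198) lies at chr6:52860418-52860748 on the plus strand. CTD-2328D6.1 (ENSG00000226958) lies at chrX:108297361-108297792 on the minus strand. Their annotated lengths were 954, 1559, 331 and 432 bases.

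The libraries held between 22153291 and 29811908 reads, so counting error was small: the 95% exact Clopper-Pearson interval of a member's share was at most 0.016 percentage points to either side. These intervals cover counting error only. UBR7 itself, the targeted gene, was at 55.0, 62.2 and 62.2 CPM (reads per 1000000 reads of the library) in parental 1, 2 and 3, at 27.0 and 26.3 CPM in KO1-1 and KO1-2, and at 64.5 CPM in the library labelled KO2-1. The RNA of the targeted gene was thus lower in line KO1 alone, and any direction taken from KO2-1 rests on its label. Of the marker lists, the 7 genes of the HEK293T background summed to 183 to 455 CPM per library. The fibroblast list (3 of 6 genes in the table) summed to 14.2, 15.6 and 21.3 CPM in parental 1, 2 and 3 and to 15.0, 12.9 and 7.35 CPM in the UBR7KO libraries, and the blood list (1 of 6 in the table) to 1.38 to 2.55 CPM, and no keratinocyte marker was in the table. In the dated pairs with the pair as a block, 2 of the 3 fibroblast genes were above 0 and 1, LUM, rose (limma), and over all 6 libraries 1 of 3 was above 0 and none was called.

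MT-RNR2 was the most abundant row in every library. Its share was 13.2% in parental 1, 18.0% in parental 2 and 20.4% in parental 3, and the UBR7KO libraries KO1-1, KO1-2 and KO2-1 had 11.9%, 16.9% and 20.7%. The first dated pair was lowest and the undated pair highest in both groups, and the groups overlapped. The 6 values differed 1.74-fold at most. Within a pair the largest difference was 0.15 on the log2 scale, whereas the 3 pair means spanned 0.71. Such a wider span between pairs than within them was the case for 73.8% of the 13697 tested genes, so MT-RNR2 shared it with most of the table.

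The share of MT-RNR1 was 3.83% in parental 1, 2.62% in parental 2 and 4.26% in parental 3, against 3.88% in KO1-1, 4.23% in KO1-2 and 5.61% in KO2-1. Parental 2 was the lowest library and KO2-1 the highest, and parental 3 lay above KO1-1 and KO1-2, so the groups overlapped. Unlike MT-RNR2, its largest difference within a pair (0.69, log2) exceeded the range of its pair means (0.55).

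RN7SK had 2.33% of the reads of parental 1, 1.68% of parental 2 and 1.36% of parental 3, against 2.13% in KO1-1, 1.75% in KO1-2 and 1.94% in KO2-1. The first dated pair was highest, parental 3 was lowest, and the UBR7KO libraries fell inside the parental range.

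In the dated pairs CTD-2328D6.1 made up 6.13% (parental 1), 5.47% (parental 2), 5.77% (KO1-1) and 2.35% (KO1-2) of a library. In the undated pair it had 0.0237% (parental 3) and 0.0136% (KO2-1), which is 6906 and 4054 reads. The lowest dated library was 99.1-fold above the highest undated one, and the row stood at rank 2 or 3 of the table in the dated libraries and at rank 514 and rank 1063 in the undated ones. Both libraries of the undated pair were low, at 237 CPM in parental 3 and 136 CPM in KO2-1. Line KO2 occurs only in that pair, so the line and the pair cannot be told apart for UBR7KO.

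**Figure D1:**
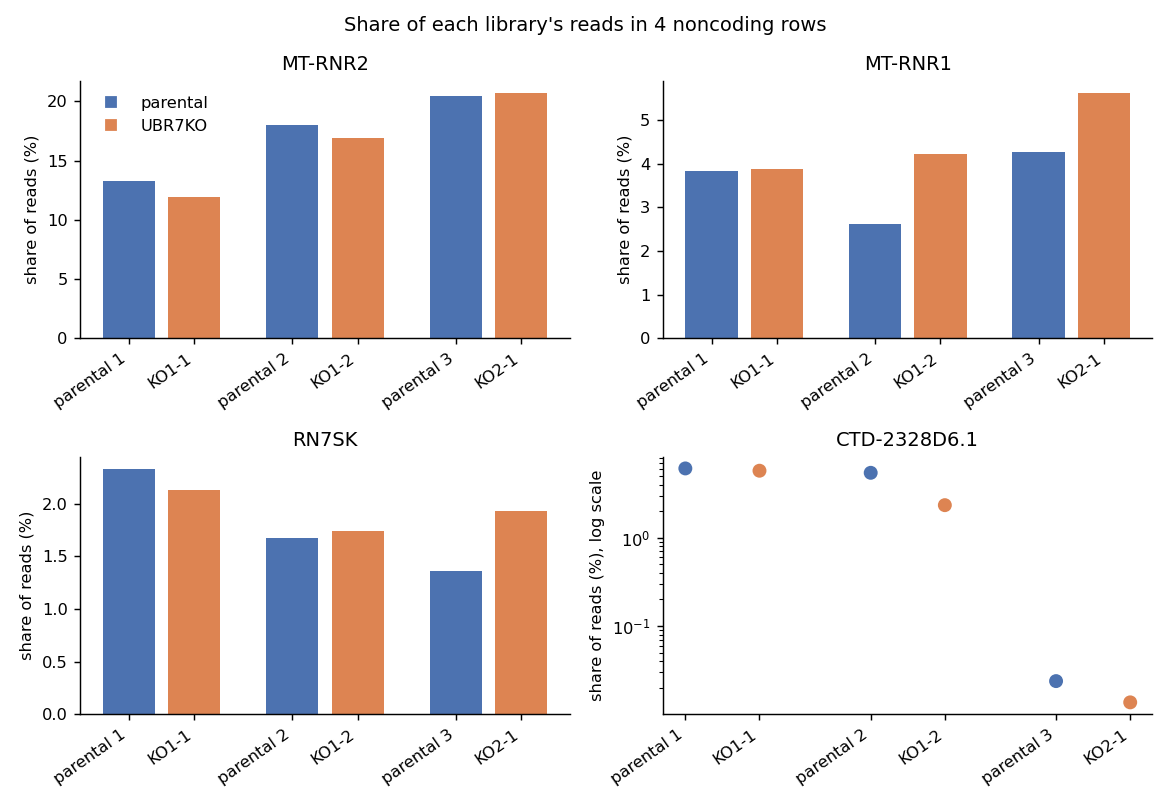
Percent of each library's reads in MT-RNR2, MT-RNR1, RN7SK (bars, linear axes from 0) and CTD-2328D6.1 (points, log axis), with the libraries of a pair side by side, parental in blue and UBR7KO in orange. MT-RNR2 climbs from the first dated pair to the undated pair in both groups (11.9% to 20.7%), and CTD-2328D6.1 drops to 0.0237% and 0.0136% in the undated pair.

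Levels of different genes were compared per length, as CPM per kilobase. On this scale CTD-2328D6.1 (141872 in parental 1, 126549 in parental 2 and 133630 in KO1-1) stood above MT-RNR2 (84886, 115646 and 76349). In KO1-2 the order was turned, with 54358 for CTD-2328D6.1 and 108214 for MT-RNR2. RN7SK, the shortest of the 4, was above MT-RNR1 in the dated and below it in the undated libraries: the per-length ratio of RN7SK to MT-RNR1 was 1.76, 1.84 and 0.919 in parental 1, 2 and 3, and 1.59, 1.19 and 0.995 in the UBR7KO libraries of the same pairs.

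Together the 4 rows held 25.5%, 27.8% and 26.1% of the total in parental 1, 2 and 3 (mean 26.5% ± 1.19, SD, n = 3) and 23.7%, 25.2% and 28.2% in the UBR7KO libraries of the same pairs (25.7% ± 2.31, SD, n = 3). In the sum, the parts offset each other: the undated pair had the most mitochondrial rRNA and the least CTD-2328D6.1. MT-RNR1 and MT-RNR2 alone averaged 20.8% ± 3.82 (SD, n = 3) in parental and 21.1% ± 5.25 (SD, n = 3) in UBR7KO libraries. Across the 6 libraries the log2 levels of CTD-2328D6.1 ran against those of MT-RNR2 (Pearson r = −0.78) and MT-RNR1 (r = −0.70). These values share their libraries and their totals and describe 6 points that fall into 3 pairs. The choice of members by level set a wide gap at its edge. RN7SK, the last one inside, averaged 1.86% of reads, and EEF2, a translation elongation factor and the first row outside, 0.389%. RN7SL2, a 7SL RNA of the signal recognition particle and the next noncoding row, averaged 0.314%.

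The libraries labelled UBR7KO were compared with the parental ones over all 6 libraries, KO2-1 included by its label, and none of the 4 rows was called. The log2 change (UBR7KO minus parental, on log2(CPM + 1)) was 0.37 ± 0.32 (SE) for MT-RNR1, −0.08 ± 0.35 for MT-RNR2, 0.15 ± 0.31 for RN7SK and −0.70 ± 3.20 for CTD-2328D6.1. The adjusted p was 1.00 for each in limma with Benjamini-Hochberg adjustment. No gene of the 13697 was called (0%), and 70 reached an unadjusted p under 0.05. On the recovered reads edgeR's quasi-likelihood test called 0 genes and DESeq2 called 7. The 3 libraries of each group did not overlap for 340 genes (2.48%), and for none of the 4 members.

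When the fit held the date pair as a block, standard errors became smaller, 0.13 for MT-RNR1, 0.09 for MT-RNR2, 0.13 for RN7SK and 0.21 for CTD-2328D6.1. The adjusted p in limma was then 0.786, 0.939, 0.914 and 0.779, and no gene was called. With a variance prior that was not robust, the standard errors of the block fit were 0.29, 0.44, 0.23 and 0.23 in the same order. That of MT-RNR2 was then above its value without the block, and again no gene was called. The direction of 3 members hung on single libraries. MT-RNR2 turned to 0.06 without parental 3 and to 0.14 without KO1-1. RN7SK turned to −0.03 without parental 3. CTD-2328D6.1 turned to 0.66 without parental 1, to 0.58 without parental 2 and to 1.99 without KO2-1, and was −3.34 without parental 3. MT-RNR1 stayed positive, at 0.16 to 0.51, with each library left out in turn.

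Pair by pair, UBR7KO over parental, MT-RNR1 was 1.013-fold in the first dated pair, 1.61-fold in the second and 1.32-fold in the undated pair. MT-RNR2 was 0.899-fold, 0.936-fold and 1.012-fold. RN7SK was 0.916-fold, 1.04-fold and 1.43-fold, and CTD-2328D6.1 was 0.942-fold, 0.43-fold and 0.574-fold. MT-RNR1 was thus at or above its parental partner and CTD-2328D6.1 below it in all 3 pairs.

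Line KO1 was also compared with its 2 dated parental partners alone. Without the block no gene was called (0%, limma; 218 at an unadjusted p under 0.05, and 0 with edgeR's quasi-likelihood test and 24 with DESeq2), and the members' log2 changes were 0.35 ± 0.47 (SE) for MT-RNR1, −0.12 ± 0.54 for MT-RNR2, −0.03 ± 0.45 for RN7SK and −0.65 ± 0.60 for CTD-2328D6.1. Leaving out a library here turned MT-RNR2 to 0.10 (without parental 2) or 0.13 (without KO1-1), and RN7SK to 0.20 (without parental 1) or 0.11 (without KO1-2). MT-RNR1 went to 0.08 without parental 2 and to 0.63 without parental 1, and CTD-2328D6.1 to −0.0039 without KO1-2 and to −1.30 without KO1-1. The count of called genes went from 0 to 19 without parental 1, 20 without parental 2, 2 without KO1-1 and 1 without KO1-2, where the lone library of a group is assumed to vary like the others. Once the pair entered the fit as a block, limma called 305 genes higher (2.23%) and 186 lower (1.36%), and none of the 4 members was among them. Their adjusted p was 0.353, 0.815, 0.947 and 0.150 in the order above. This fit has 4 libraries and 1 residual degree of freedom.

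The mitochondrial rRNAs come from a shared precursor, and their ratio does not depend on the library total. MT-RNR2 reads per MT-RNR1 read were 3.46, 6.87 and 4.80 in parental 1, 2 and 3, and 3.07, 3.99 and 3.69 in the UBR7KO libraries of the same pairs. The ratio was lower in UBR7KO in all 3 pairs, by 0.17, 0.78 and 0.38 on the log2 scale, but parental 1 lay below KO1-2 and KO2-1. The means were 5.04 ± 1.72 (SD, n = 3) and 3.58 ± 0.469 (SD, n = 3). An exact two-sided permutation test over the 6 libraries gave p = 0.3 (Benjamini-Hochberg 0.7 over the 3 measures tested), and the smallest p that 3 against 3 allows is 0.1. The permutation tests, here and below, did not keep the pairs together, so the spread between pairs enters their p-values. Without parental 2 the parental mean was 4.13.

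The rRNAs were also set against the 13 mitochondrial mRNAs, which encode subunits of the respiratory chain and ATP synthase. There were 28.8, 28.8 and 33.8 rRNA reads per mRNA read in parental 1, 2 and 3, and 30.4, 30.9 and 39.0 in the UBR7KO libraries of the same pairs. The undated pair was highest in each group, and the UBR7KO value was above that of its partner in all 3 pairs. The means were 30.5 ± 2.9 and 33.4 ± 4.81 (SD, n = 3 each), with an exact two-sided permutation p = 0.5 (Benjamini-Hochberg 0.7). The summed share of the 4 rows, compared between the groups in the same way, gave an exact permutation p = 0.7 (0.7 adjusted). That comparison says nothing about the level for which the rows were chosen.

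**Figure D2:**
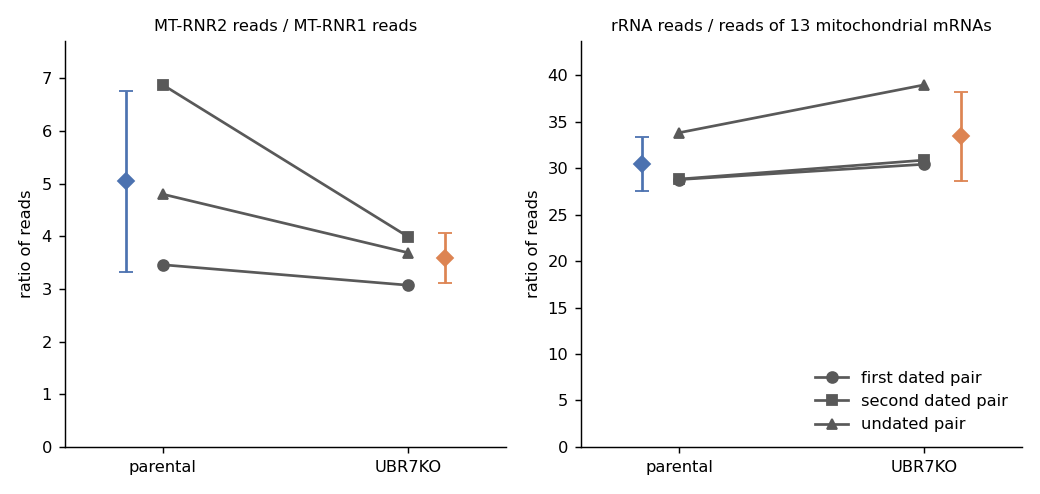
Ratio of MT-RNR2 to MT-RNR1 reads (left) and of both rRNAs to the 13 mitochondrial mRNAs (right) in each library; grey lines join the libraries of a pair, and diamonds with bars are group means ± SD (n = 3). All 3 lines descend on the left, from 3.46, 6.87 and 4.80 to 3.07, 3.99 and 3.69, and rise on the right, while the groups overlap.

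The mRNAs themselves made up 0.593%, 0.717% and 0.73% of the library total behind the CPM values in parental 1, 2 and 3, and 0.519%, 0.684% and 0.674% in the UBR7KO libraries of the same pairs. In the comparison of all 6 libraries the fitted change was below 0 for each of the 13 (median −0.17, against 0.01 over all tested genes), and none was called by limma (0%). The 13 were below 0 with TMM scaling and with totals without the 4 rows too. They share precursors and the same 6 libraries, so the 13 values are not independent observations. In the first dated pair all 13 were lower in KO1-1, in the second 9 were lower in KO1-2, and in the undated pair 11 were lower in KO2-1. Of the 13, 7 were lower in all 3 pairs.

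With the block in the dated pairs, 2 of the 13 fell and none rose (limma), beside 1.36% of all genes called lower. With totals without the 4 abundant rows 4 of the 13 fell, beside 408 of 13697 genes called lower in that fit. MT-ND5, a subunit of respiratory complex I, was at 171 and 411 CPM in parental 1 and 2 and at 102 and 312 CPM in KO1-1 and KO1-2 (log2 change −0.57 ± 0.12, SE, limma adjusted p = 0.0112). MT-ATP8, a subunit of ATP synthase, was at 78.4 and 267 CPM and at 55.2 and 204 CPM (−0.44 ± 0.12, limma adjusted p = 0.0369). Both were lower in KO1 in either pair, and the step between the pairs was larger than that between the genotypes. In the undated pair MT-ND5 went from 92.1 to 85.9 CPM and MT-ATP8 from 116 to 120 CPM. MT-CO1, the most abundant mitochondrial mRNA and a core subunit of complex IV, averaged 1954 ± 70.7 CPM in parental and 1825 ± 218 CPM in UBR7KO libraries (SD, n = 3 each).

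**Figure D3:**
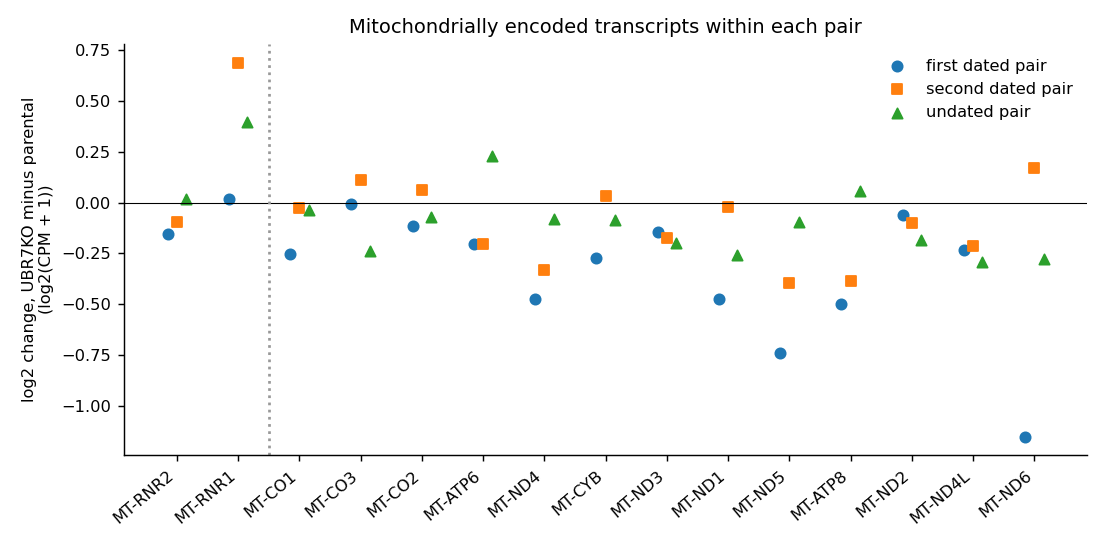
log2 change (UBR7KO minus parental, log2(CPM + 1)) of the 2 mitochondrial rRNAs and, right of the dotted line, of the 13 mitochondrial mRNAs by level, with 1 symbol per pair. MT-RNR1 lies at or above 0 in all 3 pairs, and 13, 9 and 11 of the 13 mRNAs lie below 0 in the first dated, second dated and undated pair.

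Genes that make or use mitochondrial rRNA were read in the dated pairs with the block, where 2.23% of all genes were called higher and 1.36% lower. None of 27 genes of mitochondrial transcription and rRNA processing was called. LRPPRC, an RNA-binding protein that stabilises mitochondrial mRNAs and the most expressed of that list, averaged 314 ± 19.2 CPM in parental and 294 ± 58.2 CPM in UBR7KO libraries (SD, n = 3 each). Of 74 tested mitochondrial ribosomal protein genes, 1 rose and none fell (limma), a share near that of all genes. It was MRPL24, of the large subunit, from 62.9 and 46.6 CPM in parental 1 and 2 to 82.1 and 69.4 CPM in KO1-1 and KO1-2 (log2 change 0.47 ± 0.12, SE, limma adjusted p = 0.0288), and it went from 55.6 to 49.6 CPM in the undated pair.

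For 7SK, the proteins that bind it and the kinase it holds were read. None of the 4 proteins of the 7SK particle (HEXIM1, HEXIM2, LARP7 and MEPCE) and none of the 3 P-TEFb subunits (CDK9, CCNT1 and CCNT2) was called over all 6 libraries or, with the block, in the dated pairs. LARP7, which binds the 3′ end of 7SK, was at 64.01, 131 and 72.9 CPM in parental 1, 2 and 3, and at 55.0, 124 and 81.1 CPM in the UBR7KO libraries of the same pairs. The second dated pair was highest, and each UBR7KO library was close to its partner. CCNT1, a cyclin T of P-TEFb, averaged 123 ± 13.6 CPM and 116 ± 4.28 CPM (SD, n = 3 each). None of 23 genes of RNA polymerase III and the factors at its promoters was called. Among them SSB, the La protein that binds the ends of new polymerase III transcripts, was at 144 and 158 CPM in the first dated pair and at 321 to 416 CPM in the others.

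Reads of 7SK can also fall on its many pseudogene copies. The 15 copies in the table together held 16.8 to 127 CPM, that is 0.1% to 0.594% of the RN7SK reads of the same library. The 4 MTRNR2L rows, nuclear copies related to MT-RNR2, held 0.0188% to 0.0641% of the MT-RNR2 reads. How reads that match more than 1 place were counted is not given in the sources used here, so the split between RN7SK or MT-RNR2 and their copies is uncertain.

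RN7SK was highest in the first dated pair, and so were many other rows. Of the 15 copies of RN7SK, 14 were higher in both libraries of the first dated pair than in all others. The same held for 19 of 26 other polymerase III transcripts and for 38 of 61 small nucleolar and Cajal body RNAs, for 7 of 14 snoRNA host genes and for 52 of 84 cytoplasmic ribosomal protein genes, beside 31.1% of all genes of the table. Other lists lay below that share, with 0 of 13 mitochondrial mRNAs and 13 of 75 mitochondrial ribosomal protein genes. Genes of mitochondrial transcription and rRNA processing had 2 of 27, and polymerase III factors 2 of 23. RN7SL2 was at 6104 and 7254 CPM in parental 1 and KO1-1 and at 1060 to 1649 CPM in the other 4. RN7SKP255, the most abundant 7SK copy, was at 59.1 and 67.1 CPM there and at 3.43 to 28.8 CPM elsewhere. SNORA73B, the most abundant small nucleolar RNA, was at 601 and 449 CPM against 90.1 to 346 CPM. RN7SK itself differed 1.72-fold over all 6 libraries, a smaller range than that of RN7SL2. The part of library make-up in the RN7SK level was not tested.

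Spliceosomal snRNAs were the noncoding list with the most calls in the dated pairs. With the block 5 of 24 fell and none rose (limma), beside 1.36% of all genes called lower, with a list median of −0.35 against 0.03 over all tested genes. With totals without the 4 abundant rows 8 of 24 fell, beside 408 of 13697 genes called lower in that fit. RNU5E-1, a U5 snRNA, went from 53.0 and 14.7 CPM in parental 1 and 2 to 22.0 and 9.10 CPM in KO1-1 and KO1-2 (log2 change −0.93 ± 0.16, SE, limma adjusted p = 0.00173). RNU4-1 and RNU4-2, both U4 snRNAs, changed by −0.76 ± 0.13 and −0.72 ± 0.12 (limma adjusted p = 0.00114 and 0.0011). The U2-type copies RNU2-64P and RNU2-6P, which share sequence, made up the rest. RNU2-59P, the most abundant of the list, stood at 1071 and 819 CPM in the first dated pair and at 50.8 to 160 CPM elsewhere. The summed level of the list was 1997 CPM in parental 1 and 1379 CPM in KO1-1. It was 263 and 187 CPM in parental 2 and KO1-2, and 283 and 133 CPM in parental 3 and KO2-1. Over all 6 libraries none of the 24 was above 0, and none was called (limma). The first dated pair was highest in the sum, and the part of this difference between pairs in the calls was not tested.

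In the same fit, none of 20 other polymerase III transcripts, 45 small nucleolar and Cajal body RNAs, 14 snoRNA host genes, 7 tested copies of RN7SK and 6 abundant long noncoding RNAs was called, beside 2.23% of all genes called higher and 1.36% lower. With totals without the 4 abundant rows 3 snoRNA host genes and 1 other polymerase III transcript fell and 1 long noncoding RNA rose. That fit called 406 of 13697 genes higher and 408 lower. With TMM 1 snoRNA host gene fell, beside 253 genes called lower. MALAT1, a nuclear long noncoding RNA, averaged 608 ± 215 CPM in parental and 649 ± 170 CPM in UBR7KO libraries (SD, n = 3 each). The list of nuclear rRNA, made by symbol, held a single row, and rRNA rows under other names were not looked for. That row, the 5.8S rRNA copy RNA5-8SP6, rose from 42.5 and 25.8 CPM to 62.4 and 47.0 CPM (log2 change 0.69 ± 0.13, SE, limma adjusted p = 0.00356). In the undated pair it went from 23.9 to 26.1 CPM. Of 84 cytoplasmic ribosomal protein genes, 2 fell and none rose, beside 1.36% of all genes called lower, which gives no result about the list. RPS6 went from 3378 and 1974 CPM to 1431 and 1045 CPM (−1.08 ± 0.14, limma adjusted p = 3.81e-05), and from 1378 to 2142 CPM in the undated pair. RPL26 fell by 0.54 ± 0.13 (limma adjusted p = 0.0184), and went from 849 to 996 CPM in the undated pair.

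CTD-2328D6.1 had 1 close companion in the table. AC010970.2, another pseudogene row without a description, annotated at chrY:10036113-10036711 on the minus strand, was at 3738, 4464 and 13.7 CPM in parental 1, 2 and 3, and at 2680, 1939 and 8.32 CPM in the UBR7KO libraries of the same pairs. In the dated pairs with the block its log2 change was −0.84 ± 0.16 (SE) with an adjusted p of 0.00545 in limma, while CTD-2328D6.1 was not called there. The ratio of the 2 rows stayed between 12.1 and 21.5 in all 6 libraries while the levels moved 451-fold for CTD-2328D6.1 and 537-fold for AC010970.2. Whether they share reads is not known from the table, and the annotated position is not evidence that the RNA came from there. Only 5 of the 14177 rows were more than 10-fold lower in both undated libraries than in every dated one. Beside these 2 they were ADAM12, RP11-187O7.1 and LINC00473, all under 3 CPM in every library.

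**Figure D4:**
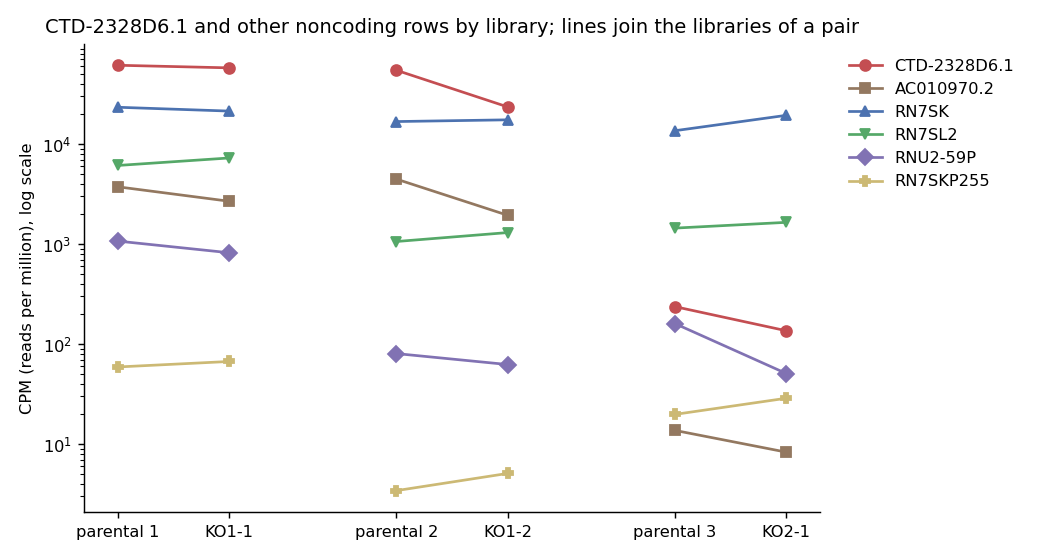
CPM (log axis) of CTD-2328D6.1, AC010970.2, RN7SK, RN7SL2, RNU2-59P and RN7SKP255 in the 6 libraries, with lines joining the libraries of a pair. CTD-2328D6.1 and AC010970.2 drop together in the undated pair (to 237 and 136 CPM, and to 13.7 and 8.32 CPM), while RN7SL2, RNU2-59P and RN7SKP255 are highest in the first dated pair.

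The tested genes whose level was most like that of each member are given as a description over 6 libraries, which share depth and preparation. For CTD-2328D6.1 they were MBTD1, AC010970.2 and R3HDM2, with Pearson r of 0.997 each. The likeness is one of shape: MBTD1 was at 40.7 to 43.5 CPM in the dated and 22.4 to 23.3 CPM in the undated libraries, a range of 0.93 on the log2 scale against 8.90 for AC010970.2. For MT-RNR2 they were PRPF8 (r = 0.999), RAP1B (0.997) and WDR12 (0.994), and for RN7SK HOXC11 (0.997), ZNF440 (0.994) and TMEM145 (0.994). MT-RNR1 had CLEC11A (0.958), LRRC3 (0.957) and ZNF488 (0.957), all at 1.94 to 8.69 CPM.

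The undated pair was compared with the dated libraries with genotype as a covariate, to place the pattern of CTD-2328D6.1 in the table. Limma called 4 of 13697 genes (0.0292%), against 1036 without the covariate, 192 with edgeR's quasi-likelihood test and 1929 with DESeq2. Among the 4 was CTD-2328D6.1, which was chosen with this pattern known, so that its call is no result. AC010970.2 (log2 change −8.03 ± 0.22, SE) followed it in every library, so its call is no separate test of the pattern. The others were CCDC86 (1.77 ± 0.16, SE, limma adjusted p = 0.0373) and the transcription factor gene BHLHE40 (−1.89 ± 0.18, limma adjusted p = 0.0373). The count rested on parental 2: without it 82 genes were called higher and 497 lower. It was 2 without KO1-1, 2 without KO1-2 and 1 without KO2-1. Mitochondrial ribosomal protein genes lay higher in the undated pair (62 of 74 above 0, median 0.31) beside 36.9% of all genes above 0 and a median of −0.16, with no member called. The 13 mitochondrial mRNAs had a median of −0.07 in the same comparison, 5 of them above 0.

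Because CPM divides by all reads, abundant rows push every other gene down. Leaving the 4 rows out of the totals raised every other gene 1.31-fold (KO1-1) to 1.39-fold (KO2-1), which is 0.39 to 0.48 on the log2 scale. What counts for a comparison is the difference between libraries. The change of every other gene moved by −0.04 in the first dated pair, by −0.05 in the second and by 0.04 in the undated pair. The mean over the groups moved by −0.01, since the signs of the pairs offset each other. Over the dated pairs alone it moved by −0.04, beside a median change of 0.03 over all tested genes. The source differed by pair: MT-RNR2 gave −0.02 in the first dated pair, CTD-2328D6.1 gave −0.05 in the second against 0.02 from MT-RNR1, and MT-RNR1 gave 0.02 in the undated pair.

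Between the undated and the dated libraries the rows pulled in opposite directions. The median change of all tested genes was −0.16 with all reads, so that changes of other genes are to be read against that value. It was −0.22 without CTD-2328D6.1, −0.04 without MT-RNR1 and MT-RNR2, and −0.13 without all 4. TMM scaling, which balances libraries on the bulk of genes, brought it to 0.01. Leaving out all 4 rows therefore removed little of the shift, since the higher mitochondrial rRNA and the lower CTD-2328D6.1 of the undated pair offset each other. Without the 4 rows 349 genes (2.55%) changed sign in that comparison, without the mitochondrial rRNAs 1325 genes (9.67%), and with TMM 1927 genes (14.1%).

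**Figure D5:**
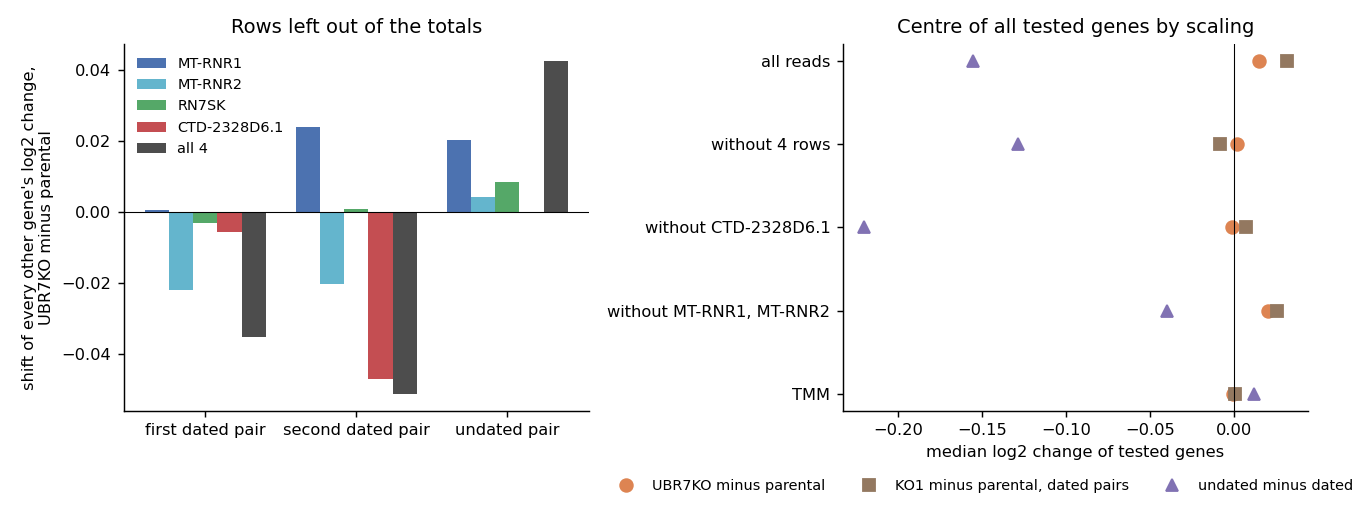
Left, shift of every other gene's log2 change (UBR7KO minus parental) in each pair when a row, or all 4, is left out of the library totals; right, median log2 change of the 13697 tested genes in 3 contrasts by scaling. The 4 rows together shift the pairs by −0.04, −0.05 and 0.04, and the undated-minus-dated median moves from −0.16 to −0.22 without CTD-2328D6.1, to −0.04 without the mitochondrial rRNAs and to 0.01 with TMM.

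For the genotype, no gene was called over all 6 libraries with or without the 4 rows in the totals, though 416 genes (3.04%) changed sign, 415 of them from positive to negative. In the dated pairs with the block 997 genes (7.28%) changed sign, all from positive to negative, and the split of the calls changed. With all reads 62.1% of the 491 calls were higher in KO1, without the 4 rows 49.9% of 814, with TMM 51.3% of 519. All 491 genes were among the 814. The fit without the 4 rows also gave every gene the variance of the common trend, that is an unlimited prior degree of freedom, against 21.4 with all reads. When the spread estimated with all reads was kept and the totals alone were changed, 517 genes were called, 263 higher and 254 lower, and 443 were shared with the 491. The 74 gained were lower in KO1 in 68 cases, and the 48 lost were all higher.

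In the fit with 814 calls, the gained genes with the greatest log2 change moved far past the threshold. LINC01021 went from a limma adjusted p of 0.0757 to 2.16e-11 and G0S2 from 0.415 to 8.2e-08. SNHG1 went from 0.621 to 3.17e-14 and HSPA1B from 0.619 to 3.9e-08 (limma). That fit gave every gene the variance of the common trend. With the spread kept, the gained genes with the greatest log2 change lay just past the threshold on one side or the other. KLF10, a transcription factor gene, was at −0.78 (limma adjusted p = 0.057) with all reads and at −0.82 (0.0453) without the 4 rows. PDE1B, a cyclic nucleotide phosphodiesterase gene, moved from −0.76 (0.0514) to −0.87 (0.0223), CAMK2B, a calcium/calmodulin-dependent kinase gene, from −0.74 (0.0514) to −0.83 (0.0262), and TMEM132B from 0.75 (0.0512) to 0.82 (0.0332). With the block UBR7 was called with either total, at −1.10 (limma adjusted p = 1.56e-05) and −1.15.

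Chromatin at the members was read from the peak lists. ATAC-seq, which reads DNA open to a transposase, was made from 2 parental and 2 UBR7KO libraries, and ChIP-seq for GFP from 1 library of cells with GFP-tagged UBR7. The labels of both UBR7KO ATAC libraries carry the code of the RNA library KO2-1. UBR7 RNA was not lower there (64.5 CPM, against 62.2 CPM in parental 3). All 4 ATAC libraries had a peak within 1 kb of RN7SK. It ran from 52859941 to 52860328 and from 52859554 to 52860462 in the parental libraries. The first of these ended before the gene's start, with 0 bases of overlap, and the other covered 45 of its 331 bases. In the UBR7KO libraries it ran from 52859544 to 52860682 and from 52859612 to 52861116 and covered 265 and 331 bases. The authors' −log10 q of these peaks was 1.96, 1.14, 0.876 and 5.55. Peaks were called in each library alone, from lists of 10507, 38529, 15310 and 45920 peaks, so their extent and score were not compared between the groups. No ATAC peak lay within 1 kb of CTD-2328D6.1, and the peak lists named no peak on mitochondrial DNA. How mitochondrial reads were treated is not given in the sources used here.

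The GFP-UBR7 list of 5895 peaks had none within 1 kb of RN7SK and 1 at CTD-2328D6.1. That peak ran from 108297676 to 108297835 on chrX and covered 117 of the 432 bases of the row. Its score, the authors' own and used for ranking alone, was 94.75, rank 1208 of the list. There was 1 library of this kind, so the peak has no replicate check. Whether its reads came from this position or from like sequence elsewhere was not tested. In bulk samples, fewer cells of a kind and less RNA per cell cannot be told apart, which holds for all levels above.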

How the data were processed

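RNA-seq (6 libraries), ATAC-seq (4) and GFP ChIP-seq (1) of HEK293T cells were used. CUT&RUN samples were not analysed here. Tools listed in the submitters' processing notes include HTSeq 0.6.1, TopHat2 2.1.0, MACS2 and edgeR, with several builds; which step used which is not given there. The deposited RNA table gives CPM, reads scaled by the authors to the library total. All values were whole reads within 1e-06 of a step, so reads and totals were recovered. Reads outside the table were 0.157% to 0.272%. The authors' deposited log2 fold changes and p-value columns were not used for calls. The deposited ATAC lists hold the authors' −log10 q, and the GFP list a score of unstated scale. Widths in the deposited table were used as gene lengths.

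Levels are means ± SD. Limma 3.58.1 (R 4.3.3, trend, robust) was fitted on log2(CPM + 1). A gene entered if 3 or more libraries exceeded 1 CPM (13697 genes), with calls at an adjusted p under 0.05. It was run on simulated counts without pair effects, which cannot show how the fits behave on libraries that share pair deviations. Fold changes on this scale understate low genes. Date pairs shared their deviations from the group means (r = 0.758 and 0.736, undated pair 0.633), and the labels give the shared dates of the dated pairs; the undated pair rests on the lack of a date in both labels. Alternatives were other totals, TMM, RLE, pseudocount 0.1, no filter, edgeR 4.0.16, DESeq2 1.42.0, the block and left-out libraries. Combined block fits, non-robust variance and a fixed spread were chosen after seeing the data. Python 3.11.15 with scipy 1.17.1 made the tables.

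The members and gene lists were chosen with earlier results of these data known. Named genes were UBR7, the 4 members, from each list at most 3 called genes (where none was called, the one with the highest level), the 3 genes most like each member, and up to 10 genes whose call changed with the totals.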

Additional observations from a re-analysis of the deposited data

Results flagged for a closer look

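The 4 libraries of line KO1 and its partners and the undated pair moved apart in MT-RNR2: KO1-1 and KO1-2 were lower than their parental partners (−0.15 and −0.10, log2), and the library labelled KO2-1 was higher than its own by 0.0168. The difference between the lines was not tested, and 0.0168 is smaller than the spread between libraries of a group.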

How the results depend on the processing

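Over all 6 libraries limma called 0 genes, and 4 with the replicate block under TMM, under RLE or with totals without the 4 rows at the spread estimated with all reads; DESeq2 called 7. In the dated pairs the replicate block took the count from 0 to 491. With the block it was 814 with totals without the 4 rows, 860 without CTD-2328D6.1 alone, 262 without the mitochondrial rRNAs, 519 with TMM, 844 with RLE, 524 with a non-robust prior (814 with that prior and totals without the 4 rows), 517 with the spread held and 482 with edgeR's quasi-likelihood test. DESeq2 without the block called 24. The prior degrees of freedom were unlimited in the fits with 814, 860 and 844 calls. Between undated and dated libraries the 4 calls became 1036 without the genotype covariate, 192 with edgeR and 1929 with DESeq2. The causes of these differences were not tested.

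Leaving out each library in turn gave 1 to 20 calls in the dated pairs and 1 to 579 between undated and dated libraries. Over all 6 libraries the log2 change ranged from −0.26 to 0.14 for MT-RNR2, −0.0334 to 0.36 for RN7SK and −3.34 to 1.99 for CTD-2328D6.1. In the dated pairs it ranged from −0.38 to 0.13 for MT-RNR2 and −0.27 to 0.20 for RN7SK. The scaling shift of −0.01 ranged from −0.0392 to 0.00501, and was 0.0150 with MT-RNR1 alone left out and 0.00219 with RN7SK alone.

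Shares depend on the total used. With the other 3 rows left out of it, MT-RNR1 had 4.61% in parental and 5.81% in UBR7KO libraries, and RN7SK 2.37% and 2.54%. Per 100 protein-coding reads the values were 5.00 and 6.35 for MT-RNR1, 24.2 and 22.9 for MT-RNR2, and 2.51 and 2.69 for RN7SK. Without the most abundant mitochondrial mRNA, the rRNA to mRNA ratio was 42.8 in parental and 47.2 in UBR7KO libraries. The replicate block changed no call for the 4 members.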
